A study of Mus musculus with 18 samples.

Results

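The genes described here encode 9 transcription factors: the 4 Fos family members Fos, Fosb, Fosl1 and Fosl2, the 3 Jun family members Jun, Junb and Jund, and the stress-induced relatives Atf3 and Maff. They were taken by gene symbol from a table of 34921 named entries, and all 9 were among the 14016 genes that reached 1 FPKM (fragments mapped to a gene, scaled by its length and by the library's total) in at least 3 libraries. Total RNA was sequenced from small punches of brain tissue in 18 libraries, 6 groups of 3, from male C57BL/6 mice aged 9 weeks. Stroke was made by photothrombosis: rose bengal (100 mg/kg, into the abdomen) was followed after 5 min by 15 min of green light (532 nm, 40 mW) through a 2 mm fibre placed 2 mm right of bregma, which clots vessels under the light. The ischemic region on the right, located by magnetic resonance imaging, was punched 4 h after stroke (libraries 2, 3 and 6), 1 day after (1, 3 and 4), 3 days after (1, 2 and 8) and 10 days after (1, 2 and 5). The first control group, called sham right, was the matching right region of sham mice (libraries 1, 2 and 3), for which no separate treatment is described. The other, called contralateral left (libraries 1, 3 and 5), was the opposite side of stroke mice picked at random, with no time given, although the labels also call it sham. These 3 punches may come from mice of the stroke groups, and the labels do not say which. The sample titles of both control groups begin with ctr and share the numbers 1 and 3. Whether this marks the same mice is not stated. Each of the other groups held 3 mice. The p-values below rest on the spread between libraries within groups, pooled over all 6 groups and drawn toward that of other genes. They do not measure the spread of the compared groups alone.

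AP-1 is a dimer in which a Jun protein pairs with another Jun protein or with a Fos or ATF protein through a basic leucine zipper (bZIP), and it binds the DNA letters TGAGTCA (the TRE) or TGACGTCA (the CRE). Several of its genes are immediate early genes, whose transcription starts within minutes of synaptic activity, growth factors or injury without new protein being made first, and whose RNA is short-lived. In the brain Fos is widely used as a mark of recently active neurons, whereas Jun and Atf3 are known for their induction in injured neurons. Maff is a small Maf protein that lacks an activation domain of its own and acts through its partners, among them NRF2 and its relatives.

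Promoter windows of 4 members are shown because Atf3 and Maff were the most raised after stroke, Fos fell late and Jun did not pass the test in any comparison. The windows are RefSeq sequences of GRCm38.p6, 250 bases before to 50 bases after an annotated start, written 5′ to 3′ on the gene's strand with the matched letters in capitals. They are chr1:191183284-191183583 on the minus strand for Atf3, chr15:79347270-79347569 on the plus strand for the second of 3 Maff starts, chr4:95052173-95052472 on the minus strand for Jun and chr12:85473640-85473939 on the plus strand for Fos.
Atf3: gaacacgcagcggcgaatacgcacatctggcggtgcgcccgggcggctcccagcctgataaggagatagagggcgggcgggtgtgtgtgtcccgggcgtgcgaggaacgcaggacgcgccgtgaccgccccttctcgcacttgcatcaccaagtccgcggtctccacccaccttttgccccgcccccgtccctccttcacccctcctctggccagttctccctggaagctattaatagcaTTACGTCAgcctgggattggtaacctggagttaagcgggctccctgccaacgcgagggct
Maff: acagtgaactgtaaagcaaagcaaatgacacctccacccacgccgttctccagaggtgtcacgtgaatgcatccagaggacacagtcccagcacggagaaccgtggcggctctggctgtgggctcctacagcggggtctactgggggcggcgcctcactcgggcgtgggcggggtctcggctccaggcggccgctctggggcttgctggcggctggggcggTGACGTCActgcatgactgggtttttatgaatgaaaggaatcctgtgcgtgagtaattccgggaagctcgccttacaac
Jun: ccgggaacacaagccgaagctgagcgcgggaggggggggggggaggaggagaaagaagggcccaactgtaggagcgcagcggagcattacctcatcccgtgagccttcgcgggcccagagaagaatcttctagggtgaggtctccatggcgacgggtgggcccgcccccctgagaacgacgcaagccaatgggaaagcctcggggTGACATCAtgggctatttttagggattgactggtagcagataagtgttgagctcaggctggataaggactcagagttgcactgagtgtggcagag
Fos: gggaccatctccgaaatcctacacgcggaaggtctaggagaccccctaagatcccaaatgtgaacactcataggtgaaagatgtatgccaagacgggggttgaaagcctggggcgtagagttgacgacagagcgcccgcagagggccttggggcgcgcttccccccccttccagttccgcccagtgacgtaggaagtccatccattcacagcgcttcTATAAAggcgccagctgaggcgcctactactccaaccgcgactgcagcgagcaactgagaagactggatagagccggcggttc
The Atf3 window held TTACGTCA, the reverse complement of the CRE variant TGACGTAA, beginning 10 bases before the start. The Maff window held the full CRE TGACGTCA beginning 29 bases before its start, and the Jun window held TGACATCA, known as the jun TRE, beginning 45 bases before the start. The Fos window held no exact match to these letters on either strand and a TATAAA box beginning 33 bases before the start. It did hold tgacgtag, which differs from TGACGTAA in the last letter only and was not counted. Sites more than 250 bases before a start lie outside the windows, so the Fos promoter is not shown to lack such a site. Of the other Maff windows the first held none of these letters and the third held TGACATCA. The 8 members with a window had 10 windows in all. Of these, 4 held at least 1 of TGAGTCA, TGACGTCA, TGACATCA and TGACGTAA, beside 10.8% of 32851 windows of all genes. Those 4 windows belong to 3 members, since Maff gave more than 1 of them. TGACATCA carries the name of the Jun gene, so its match in the Jun window is not independent. The count does not test whether these letters are more frequent in this family. Across all windows TGACGTCA was found in 1.79%, TGACATCA in 3.62%, TGACGTAA in 0.499%, TGAGTCA in 5.2% and TATAAA, on the gene's strand, in 8.32%. Which start was used in these libraries was not measured, and the Atf3 start shown lies 34706 bases inside the edge of the GENCODE gene.

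Library 5 of the 10 day group stood apart, with 44.6% of its FPKM on mitochondrial genes. The other libraries of its group were at 29.3% and 29.8%, and all others ranged from 24.4% to 38.96% (contralateral left library 1). Library 5 held the lowest level of its group for every member except Fos and Atf3, for which it held the highest. Nominal depth, inferred from the steps between low FPKM values, ran from 12.7 M fragments, in this library, to 29.7 M. No more than 44.8% of low values fell within 0.1 of a whole multiple, so the depth is a rough figure. The tissue label was checked with 6 neuron markers, whose summed level was between 812 and 1137 FPKM in all 18 libraries. In punches of mixed tissue, fewer cells of a type and less RNA per cell cannot be told apart.

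The members did not move as a block. At 4 h, 4 of 9 were called higher than sham right and none lower (limma, Benjamini-Hochberg adjusted p under 0.05), where 1.32% of all tested genes were called higher and 2.18% in either direction. At 1 day 3 of 9 were called higher, beside 0.899% of all genes higher and 1.18% in either direction. At 3 days it was again 3 of 9, beside 6.91% and 7.36%. At 10 days 1 member was called higher, beside 6.21% of all genes, and 2 were called lower, beside 0.92%, with 7.13% of all genes called in either direction. The median member difference from sham right, in log2(FPKM + 1), was 0.26 at 4 h, -0.01 at 1 day, 0.19 at 3 days and -0.44 at 10 days, and that of all tested genes was 0.01, 0.03, 0.08 and -0.07. Atf3 was the member raised at all 4 times, Maff and Fosl1 were raised at the first 3, Fosb at 4 h, and Fos and Junb were the members lowered at 10 days. The 3 Jun genes and Fosl2 had no call of a rise at any time. The groups' library ranges did not overlap for 4 of 9 members at 4 h, 5 at 1 day, 3 at 3 days and 5 at 10 days, where 35.9%, 22.8%, 36.8% and 27% of all tested genes had ranges apart.

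**Figure D1:**
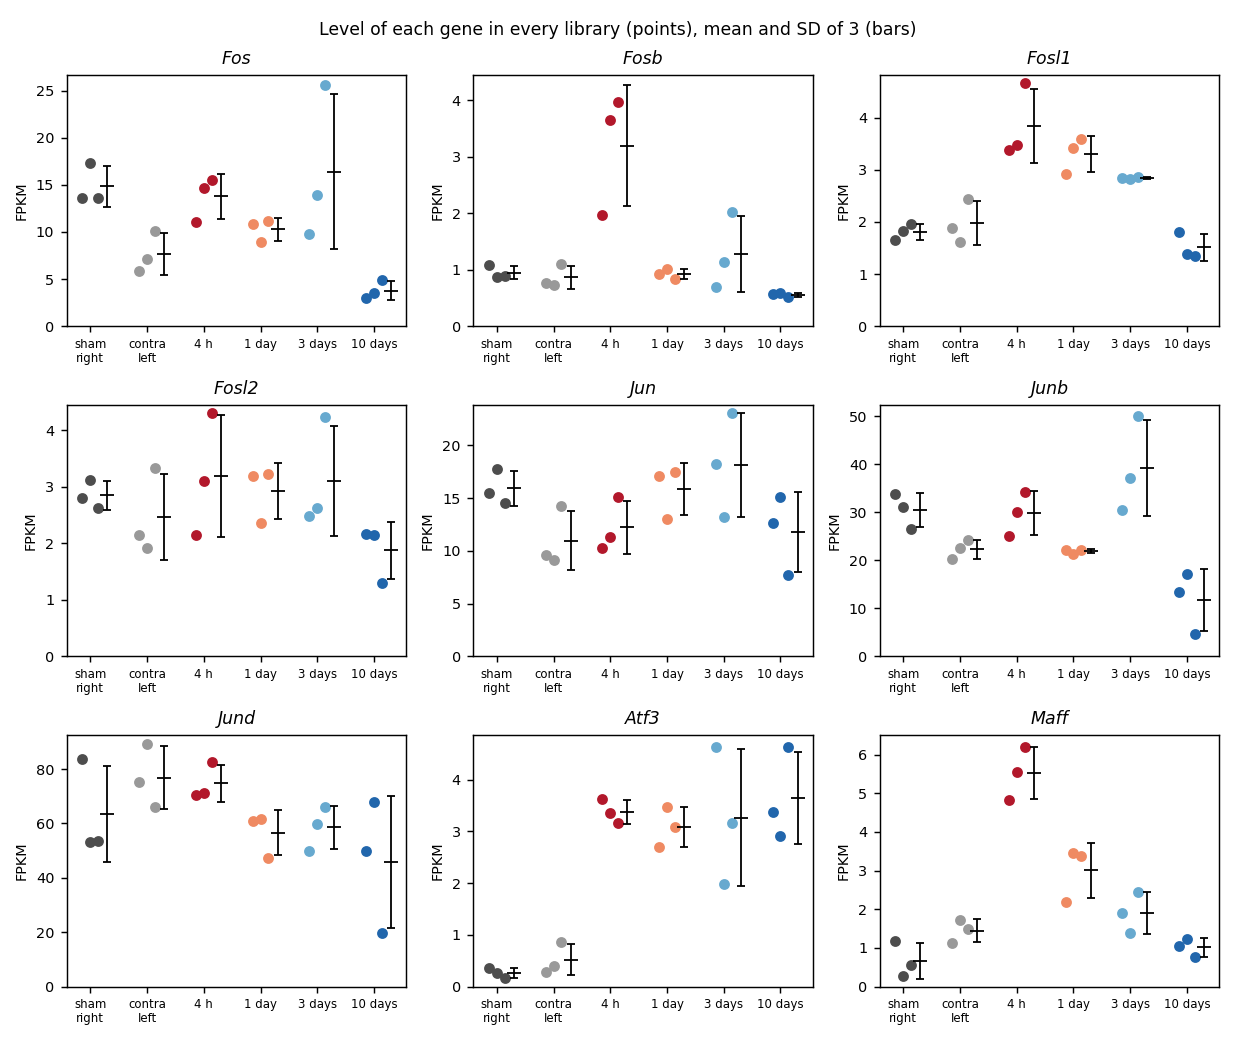
Level of each of the 9 genes in FPKM (vertical axes, each on its own linear scale) in the 6 groups; points are single libraries, and the bars beside them are the mean and SD of 3. Atf3 lies at 0.854 FPKM or less in the 6 control libraries and at 1.99 or more in the 12 stroke libraries, whereas Fos stays between 8.91 and 25.6 FPKM from 4 h to 3 days and is at most 4.85 at 10 days.

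Atf3 (activating transcription factor 3) is a bZIP protein induced by many stresses that can repress transcription as a homodimer, and its gene lies at chr1:191170296-191218039 on the minus strand (GRCm38). It was at 0.352, 0.262 and 0.159 FPKM in the sham right libraries and at 0.291, 0.398 and 0.854 FPKM in the contralateral left ones. After stroke it was at 3.62, 3.36 and 3.16 FPKM at 4 h and at 2.69, 3.47 and 3.09 FPKM at 1 day. At 3 days it was at 4.64, 1.99 and 3.17 FPKM and at 10 days at 3.38, 2.91 and 4.64 FPKM. All 12 stroke libraries were above all 6 control libraries, and the 4 stroke groups overlapped one another, so their order (10 days, 4 h, 3 days, 1 day by mean) did not exceed the spread. The mean FPKM was 13.1 times that of sham right at 4 h, 11.97 times at 1 day, 12.7 times at 3 days and 14.1 times at 10 days. On the log2(FPKM + 1) scale Atf3 rose by 1.80 ± 0.20 (SE) at 4 h, 1.70 ± 0.20 at 1 day, 1.72 ± 0.20 at 3 days and 1.87 ± 0.20 at 10 days. The limma adjusted p was 2.021e-04, 1.868e-04, 2.655e-05 and 6.226e-06. A pseudocount of 0.1 in place of 1 raised these values to 3.32, 3.18, 3.19 and 3.40, because the sham level is far below 1 FPKM. With contralateral left as the control the rises were 1.55, 1.45, 1.46 and 1.62, all called. None of the 3 steps between neighbouring times was called for Atf3.

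The steady Atf3 level stood beside a changing set of cells. The summed level of 7 monocyte and macrophage markers was 15.7 to 22.1 FPKM in sham right and 9.78 to 18.9 FPKM at 4 h. It then reached 28.5 to 40.6 FPKM at 1 day, 116 to 246 at 3 days and 596 to 2082 at 10 days, while Atf3 stayed within 1.99 and 4.64 FPKM. The 6 microglia markers summed to 88.7 to 115 FPKM in sham right, 71.5 to 88.3 at 4 h, 87.9 to 96.0 at 1 day, 219 to 301 at 3 days and 386 to 465 at 10 days. Neutrophil markers, 6 in number, summed to 0.940 to 5.26 FPKM in sham right, 4.35 to 16.1 in contralateral left and 6.34 to 19.6 at 4 h, with Ly6g at 0 in 14 of the 18 libraries. The 5 astrocyte markers summed to 158 to 177 FPKM in sham right, 131 to 158 at 4 h and 484 to 661 at 3 days. The 4 lymphocyte markers summed to at most 1.16 FPKM in any library. Endothelial markers, 5 in number, summed to 46.5 to 53.6 FPKM in sham right and 30.1 to 32.6 at 4 h, and 4 pericyte and smooth muscle markers to 36.2 to 44.3 and 28.2 to 31.5 FPKM. The 5 oligodendrocyte markers summed to 676.5 to 999 FPKM in sham right and 775 to 839 at 10 days, and 3 markers of dividing cells to 0.668 to 1.04 FPKM in sham right and 9.46 to 20.7 at 3 days. Choroid plexus markers varied from 1.105 to 633 FPKM over the 18 libraries, and the 2 measured red blood cell markers from 42.6 to 403 FPKM. The part of cell numbers in the Atf3 levels was not tested at any time, 4 h and 1 day included.

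Maff, at chr15:79346621-79359076 on the plus strand, was highest at 4 h, with a lower mean at each later time. It was at 1.17, 0.261 and 0.570 FPKM in sham right and at 1.13, 1.73 and 1.48 FPKM in contralateral left. At 4 h it was at 4.83, 5.55 and 6.20 FPKM, above every other library. It was at 2.19, 3.45 and 3.38 FPKM at 1 day and at 1.90, 1.38 and 2.44 FPKM at 3 days, groups that overlapped each other. At 10 days it was at 1.04, 1.24 and 0.758 FPKM, within the sham right range or just above it. The mean was 8.30 times that of sham right at 4 h, 4.52 times at 1 day and 2.86 times at 3 days. Maff rose by 2.00 ± 0.20 on the log2(FPKM + 1) scale at 4 h (limma adjusted p = 5.756e-05), by 1.29 ± 0.20 at 1 day (limma adjusted p = 0.00246) and by 0.82 ± 0.20 at 3 days (limma adjusted p = 0.0141). A pseudocount of 0.1 gave 3.05, 2.18 and 1.54.

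The later Maff calls rested on the choice of control. With contralateral left as the control, Maff was 1.42 higher at 4 h (limma adjusted p = 0.00226), but 0.70 at 1 day (adjusted p = 0.0827) and 0.24 at 3 days (adjusted p = 0.458) did not pass. The 3 day call also ended without sham right library 2 or 3 (limma adjusted p = 0.0992 and 0.0588) or without 3 day library 1 or 8 (0.0534 and 0.0987). The steps down from 4 h to 1 day (-0.71), 1 day to 3 days (-0.46) and 3 to 10 days (-0.52) had unadjusted p under 0.05 and limma adjusted p over 0.05, so no step between neighbouring times passed the test over all genes.

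Fosb, whose protein also exists as the truncated and long-lived DeltaFosB made by splicing, was raised at 4 h. The gene lies at chr7:19302696-19310051 on the minus strand, and gene-level FPKM does not separate its splice forms. It was at 1.09, 0.873 and 0.890 FPKM in sham right and at 1.98, 3.65 and 3.97 FPKM at 4 h, with no overlap. By 1 day it was at 0.928, 1.01 and 0.843 FPKM, inside the sham right range or just under it. At 3 days it was at 0.691, 1.13 and 2.02 FPKM, with library 8 above the lowest 4 h value, and at 10 days at 0.566, 0.588 and 0.522 FPKM, under every other library. The contralateral left libraries were at 0.773, 0.722 and 1.096 FPKM. Fosb rose by 1.07 ± 0.20 at 4 h (limma adjusted p = 0.00771), a mean level 3.37 times that of sham right. From 4 h to 1 day it fell by 1.09 ± 0.20 on the log2 scale (limma adjusted p = 0.00897), the 1 member of 9 called in that step, where 0.378% of all genes were called lower and 1.23% in either direction. That call ended without 4 h library 3 or 6 (limma adjusted p = 0.0518 and 0.0604). The lower 10 day level was not called against sham right.

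Fosl1 encodes Fra-1, a Fos protein without the transactivation domain of Fos that often accumulates later and for longer. Its gene, at chr19:5447547-5455946 on the plus strand, was at 1.65, 1.83 and 1.95 FPKM in sham right, 1.89, 1.61 and 2.45 FPKM in contralateral left and 3.38, 3.48 and 4.66 FPKM at 4 h. It was at 2.93, 3.41 and 3.59 FPKM at 1 day, 2.85, 2.82 and 2.86 FPKM at 3 days and 1.81, 1.39 and 1.34 FPKM at 10 days. The 9 libraries from 4 h to 3 days were above the other 9, and the 10 day range overlapped sham right. Fosl1 rose by 0.77 ± 0.13 at 4 h (limma adjusted p = 0.00464), 0.61 ± 0.13 at 1 day (0.0278) and 0.45 ± 0.13 at 3 days (0.0449), and fell by 0.62 ± 0.13 from 3 to 10 days (0.0183). The 4 h call was kept with every library left out in turn. The 1 day call ended without any 1 of the 3 sham right libraries or of 1 day libraries 3 and 4, with limma adjusted p from 0.0801 to 0.141, and the 3 day call ended without any 1 of its 6 libraries, with adjusted p up to 0.175. The step to 10 days ended without 3 day library 1, 2 or 8 or 10 day library 2 or 5, with limma adjusted p from 0.0556 to 0.0741. Of its 2033 exonic bases, 1163 overlap Ccdc85b on the opposite strand (GENCODE M21), a gene at 13.0 to 331 FPKM here. Strand handling is not given in the sources used here, so the Fosl1 level is uncertain. The mean Ccdc85b level was 154 FPKM in sham right, 146 at 4 h, 150 at 1 day, 122.5 at 3 days and 111 at 10 days, with r = 0.07 between the genes over 18 libraries, which share 6 conditions.

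**Figure D2:**
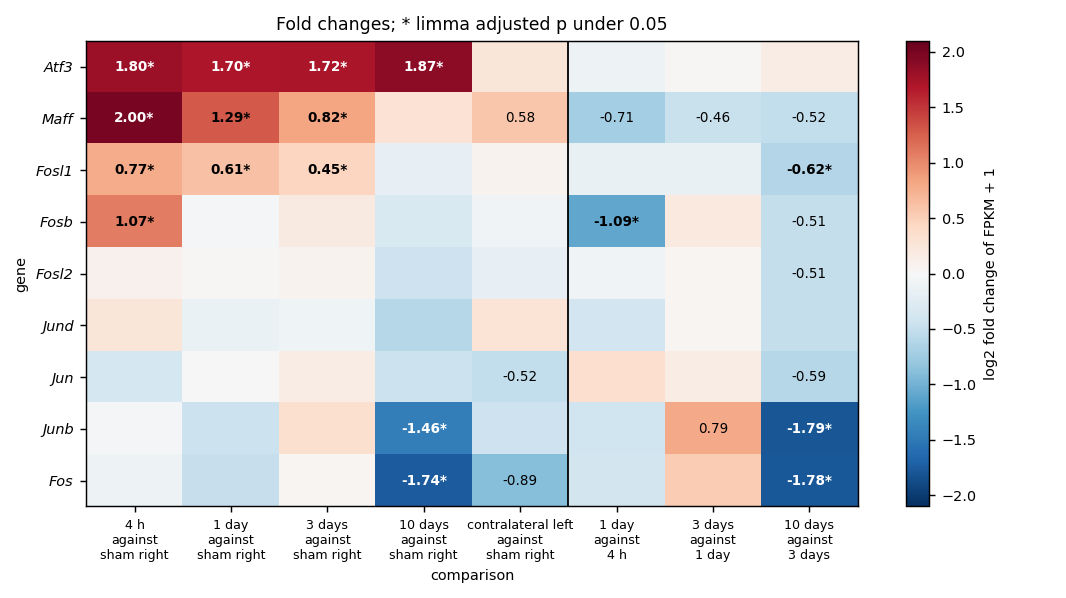
Difference of each gene (rows) in each of the 8 comparisons (columns) on the log2(FPKM + 1) scale, red for higher in the first-named group and blue for lower, with values printed where unadjusted p was under 0.05 and a star where the limma adjusted p was under 0.05. Atf3 is starred in all 4 comparisons of stroke with sham right (1.70 to 1.87), and Fos and Junb are starred at 10 days against sham right and against 3 days.

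Fos, the namesake of the family, at chr12:85473890-85477273 on the plus strand, had no call at 4 h, 1 day or 3 days and was low at 10 days. It was at 13.6, 17.4 and 13.6 FPKM in sham right and at 11.1, 14.7 and 15.5 FPKM at 4 h, ranges that overlap. It was at 10.8, 8.91 and 11.1 FPKM at 1 day, under every sham right library, and at 9.73, 13.9 and 25.6 FPKM at 3 days, the widest spread of any group. The 10 day libraries were at 2.94, 3.56 and 4.85 FPKM, lower than every other library. Fos was 1.74 ± 0.27 lower than sham right at 10 days on the log2(FPKM + 1) scale (log2 fold change -1.74, limma adjusted p = 2.915e-04), a sham right mean 3.93 times the 10 day mean. From 3 to 10 days it changed by -1.78 ± 0.27 (limma adjusted p = 0.0016). Both calls were kept with every library left out in turn. The contralateral left libraries were also low, at 5.82, 7.08 and 10.14 FPKM, all under the sham right range. Against them the 10 day difference was -0.85 (limma adjusted p = 0.0616) and did not pass, and the 3 day level was higher by 0.93 (limma adjusted p = 0.0357), a call that sham right does not give.

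Junb, a Jun family member that can oppose Jun at shared sites, followed a similar order. Its gene lies at chr8:84974484-84978718 on the minus strand, and 173 of its 2301 exonic bases overlap Prdx2, at 35.3 to 64.2 FPKM, on the opposite strand. The r between Junb and Prdx2 over 18 libraries was 0.40. Since strand handling is not given, some uncertainty applies to the Junb level as well. Junb was at 33.8, 31.1 and 26.6 FPKM in sham right, 25.1, 30.2 and 34.3 FPKM at 4 h and 22.1, 21.4 and 22.1 FPKM at 1 day. It was at 30.5, 37.1 and 50.2 FPKM at 3 days and at 13.5, 17.1 and 4.63 FPKM at 10 days. The 10 day libraries were under every other library, and the 1 day libraries were under every sham right library without a call. Junb changed by -1.46 ± 0.30 at 10 days against sham right (limma adjusted p = 0.00468) and by -1.79 ± 0.30 from 3 to 10 days (limma adjusted p = 0.00434). Without 10 day library 5, which held the 4.63 FPKM, the 10 day difference was -0.95 (limma adjusted p = 0.00336) and that from 3 days -1.28 (limma adjusted p = 0.00209). When the fit held sham right and 10 days alone, the call ended (limma adjusted p = 0.143). From 1 to 3 days Junb differed by 0.79 with limma adjusted p = 0.214; none of the 9 members was called in that step, where 5.22% of all genes were, and 2 of 9 had unadjusted p under 0.05. From 3 to 10 days 3 of 9 were called lower, Fos, Junb and Fosl1, beside 1.19% of all genes called lower and 2.02% in either direction, and 7 of 9 had unadjusted p under 0.05, all lower at 10 days.

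The lower Fos and Junb levels stood beside a summed neuron marker level within the sham right range. The 6 neuron markers summed to 839 to 984 FPKM in sham right and 878 to 982 FPKM at 10 days. Gene by gene their median difference at 10 days was -0.16, beside -0.07 for all tested genes, with none called. The part of neuron numbers in the lower Fos and Junb levels was not tested. Macrophage markers reached their highest level at 10 days, as given above, and the part of those cells' RNA in the lower Fos and Junb shares was not tested.

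Jun, Jund and Fosl2 had no call in any of the 8 comparisons, and their neighbouring groups in order of level all overlapped. Jun, the target of the JNK kinases, is a single-exon gene at chr4:95049034-95052222 on the minus strand. It was at 15.5, 17.8 and 14.5 FPKM in sham right, 10.3, 11.3 and 15.1 FPKM at 4 h and 17.1, 13.0 and 17.5 FPKM at 1 day. It was at 18.2, 13.2 and 23.1 FPKM at 3 days and 12.6, 15.1 and 7.69 FPKM at 10 days, with the lowest value in library 5. Jun at 10 days differed from 3 days by -0.59 with unadjusted p under 0.05 and no call after adjustment.

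Jund is the member least dependent on stimulation and had the highest level of the 9 in every group. Its single exon lies at chr8:70698949-70700616 on the plus strand, and 877 of its bases overlap Gm11175 on the opposite strand, a gene at 0.179 to 1.85 FPKM. Jund was at 83.8, 53.1 and 53.5 FPKM in sham right, 75.2, 89.1 and 66.0 FPKM in contralateral left and 70.5, 71.2 and 82.5 FPKM at 4 h. It was at 61.0, 61.7 and 47.1 FPKM at 1 day, 49.9, 59.7 and 65.9 FPKM at 3 days and 49.7, 67.7 and 19.8 FPKM at 10 days. Sham right library 1 was high and 10 day library 5 was low, and the groups overlapped.

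Fosl2 encodes Fra-2 and lies at chr5:32135801-32157842 on the plus strand. It was at 2.80, 3.13 and 2.62 FPKM in sham right, 2.15, 3.103 and 4.3 FPKM at 4 h and 3.19, 2.36 and 3.23 FPKM at 1 day. It was at 2.48, 2.62 and 4.23 FPKM at 3 days and 2.17, 2.15 and 1.3 FPKM at 10 days. The 10 day libraries were under every sham right library, but the difference was not called. From 3 to 10 days Fosl2 and Fosb each differed by -0.51 with unadjusted p under 0.05 and no call.

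Because FPKM is scaled by length, the members can be set beside one another. The 9 levels summed to 131 ± 20.3 FPKM (SD, n = 3) in sham right, 125 ± 8.60 in contralateral left, 149.7 ± 18.5 at 4 h, 118 ± 5.56 at 1 day, 145 ± 30.7 at 3 days and 81.7 ± 33.5 at 10 days. The 10 day sum ran from 45.6 to 112 FPKM, under the sham right range of 114 to 154 FPKM, with the lowest sum in library 5. Jund made up 40.9% to 61.3% of the sum as group means. Junb made up 23.3% in sham right, 27.0% at 3 days and 13.6% at 10 days, and Fos 11.5% in sham right and 5.72% at 10 days. The 10 day Fos shares were 3.35%, 3.18% and 10.6%, the last in library 5 and inside the sham right range of 8.85% to 13.8%, and the mean without it was 3.26%. Atf3 made up 0.192% in sham right and 5.55% at 10 days, where the libraries held 3.85%, 2.61% and 10.18%, the last in library 5, and the mean without it was 3.23%. Maff made up 0.488% in sham right and 3.69% at 4 h. Atf3 and Maff, with the largest rises, had the lowest levels of the 9 in sham right.

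**Figure D3:**
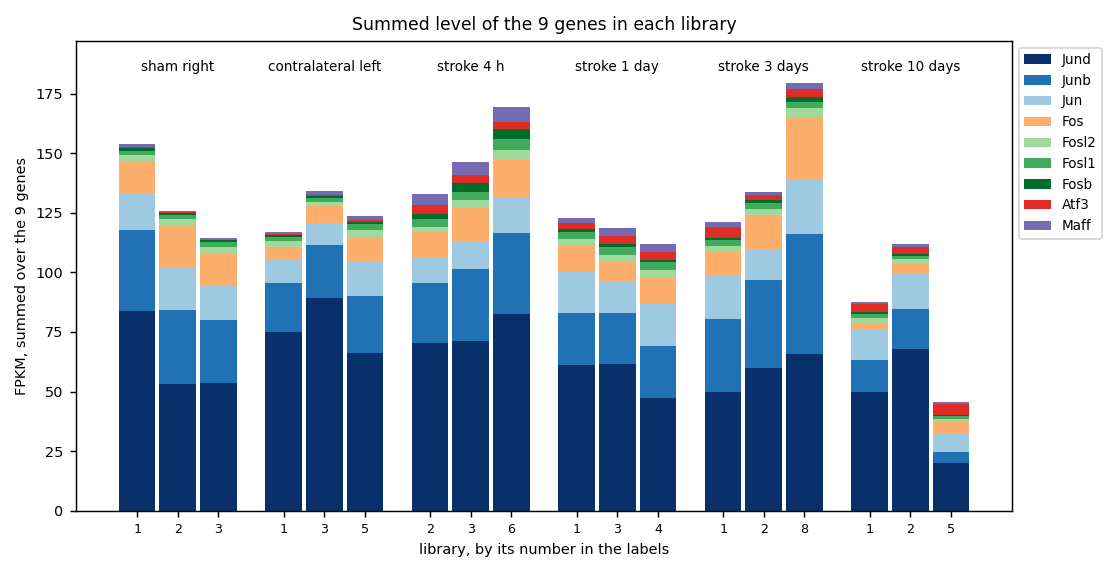
Level of the 9 genes stacked to their sum (FPKM, linear axis from 0) in each of the 18 libraries, ordered by group. Jund is the largest part of every bar, 10 day library 5 has the lowest sum (45.6 FPKM), and Atf3 is visible after stroke but hardly in the control libraries.

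Contralateral left against sham right asks whether the side opposite the lesion resembled the sham brain. None of the 9 members was called (limma), where 0.0285% of all genes were called, and 3 of 9 had unadjusted p under 0.05. Those were Fos (-0.89, limma adjusted p = 0.476), Jun (-0.52, limma adjusted p = 0.642) and Maff (0.58, limma adjusted p = 0.530). The library ranges did not overlap for 3 of 9 members, where 11.9% of all tested genes had ranges apart. Jun was at 9.60, 9.09 and 14.2 FPKM and Junb at 20.3, 22.5 and 24.1 FPKM on the contralateral side, each under the sham right range, as for Fos. Fosl2 there was at 2.14, 1.92 and 3.33 FPKM and overlapped sham right. Without contralateral left library 5, which held the highest Fos and Jun of that group, Fos was called lower (-1.09, limma adjusted p = 0.0316), in a fit that called 1213 of the 14016 genes where the fit with it called 4.

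The wider pathway was described with 5 lists of genes, each set beside its count of called members. Of 21 other bZIP factors 17 were tested, and 3 were called higher than sham right at 4 h, 1 at 1 day, 3 at 3 days and 3 at 10 days, with none lower, where 1.32%, 0.899%, 6.91% and 6.21% of all tested genes were called higher. Cebpd, a C/EBP factor of acute inflammation, was at 2.61 ± 0.102 FPKM (SD, n = 3) in sham right and rose by 1.11 at 4 h, 1.70 at 1 day and 1.47 at 3 days. Cebpb rose by 1.303 at 4 h, to 5.03 ± 1.99 FPKM. Nfe2l2, which encodes the Maff partner NRF2, rose by 1.13 at 3 days, when Maff was also called, and by 1.42 at 10 days, when it was at 13.8 ± 6.38 FPKM and Maff was not called. The 4 h calls of Cebpb and Cebpd were not stable: that of Cebpb ended with any 1 of the 6 libraries left out and that of Cebpd with any but 4 h library 6, with limma adjusted p up to 0.172 and 0.0855. With contralateral left as the control they were 0.44 and 0.55 higher at 4 h and not called (limma adjusted p = 0.376 and 0.186).

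Of 20 genes known to have AP-1 sites in their regulatory regions, 17 were tested. Like the other lists, this one was chosen with earlier results of these data known. Its counts therefore describe the listed genes and are no test of AP-1 activity. Called higher than sham right were 4 at 4 h, 8 at 1 day, 11 at 3 days and 12 at 10 days, with 1 called lower, at 10 days. The share of all tested genes called higher also grew, from 1.32% at 4 h and 0.899% at 1 day to 6.91% and 6.21%. Their median difference was 0.30, 0.87, 1.31 and 1.31 in that order, beside 0.01, 0.03, 0.08 and -0.07 for all tested genes. The count was highest at 10 days, when 2 AP-1 members were called lower and 1 higher. Plaur, the urokinase receptor, was at 0.350 ± 0.169 FPKM in sham right and rose by 1.56 at 4 h, and Ccl2, a monocyte-attracting chemokine, rose by 3.68 at 1 day, to 15.3 ± 3.85 FPKM. Hmox1, heme oxygenase 1, rose by 1.81 at 4 h, 3.54 at 1 day and 4.47 at 3 days, when it was at 76.3 ± 36.8 FPKM. Spp1, a secreted protein of phagocytes, rose by 4.64 at 3 days and 5.87 at 10 days, and Mmp3, a matrix protease, rose by 3.51 at 10 days. Their 10 day libraries differed widely, at 1134 ± 1156 FPKM for Spp1 and 12.1 ± 8.49 FPKM for Mmp3. In sham right Mmp3 was at 0.0163 ± 0.0282 FPKM. Vegfa was the one called lower, by 0.63 (log2 fold change -0.63). The 4 h Hmox1 call ended with any 1 library but 4 h library 6 left out (limma adjusted p up to 0.107) and against contralateral left (0.0562), and the Vegfa call with any but 10 day library 1 (up to 0.2125). Several of these genes are also made by macrophages, whose markers moved as given above, and that part was not tested.

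A list of 20 other immediate early genes, all tested, had its highest count of calls at 10 days, all lower, the direction of Fos and Junb. Against sham right 2 were called higher and 2 lower at 4 h, 1 and 3 at 1 day, 3 and 0 at 3 days, and 0 and 8 at 10 days. Of all tested genes 1.32% were called higher and 0.863% lower at 4 h, 0.899% and 0.278% at 1 day, 6.91% and 0.457% at 3 days, and 6.21% and 0.92% at 10 days. The list's median difference was -0.04, -0.16, 0.05 and -0.80. For contralateral left against sham right it was -0.33, beside -0.05 for all tested genes, with none of the list called. Arc, a synaptic activity gene, was at 82.7 ± 10.9 FPKM in sham right and differed by -1.06 at 4 h, -1.24 at 1 day and -2.49 at 10 days, when it was at 14.6 ± 6.61 FPKM. Nr4a1, an orphan nuclear receptor, differed by -1.60 at 10 days. Ier3 rose by 0.71 at 4 h, 1.43 at 1 day and 1.04 at 3 days, and Zfp36, which encodes an mRNA decay factor that binds AU-rich transcripts, rose by 1.50 at 4 h and 1.03 at 3 days. Ier2 at 4 h (-0.58) and Btg2 at 1 day (-1.08) were the other genes called lower by the naming rule. These early calls were fragile: Arc and Ier2 at 4 h and Btg2 at 1 day each ended with any 1 of 6 libraries left out (limma adjusted p up to 0.161, 0.176 and 0.221). Arc at 1 day ended with any but 1 day library 1 (up to 0.170), and Ier3 at 4 h without sham right library 2 or 3 or 4 h library 2 or 3 (up to 0.151). Zfp36 ended at 4 h without sham right library 2 or 4 h library 6 (up to 0.0584) and at 3 days with any but 3 day library 2 (up to 0.235). With contralateral left as the control, Ier2 at 4 h was at 0.0059, on the other side of 0, Arc was at -0.11 at 4 h and -0.29 at 1 day, and Btg2 at 1 day was at -0.47, none of them called (limma adjusted p = 0.984, 0.814, 0.5515 and 0.312). Ier3 at 4 h (0.62) and Zfp36 at 4 h (1.15) and 3 days (0.68) were not called against it either, while Arc at 10 days was (-1.54, limma adjusted p = 6.733e-04).

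Genes whose level followed a member most closely over the 18 libraries were named by Pearson's r of log2(FPKM + 1) across all tested genes. The libraries share 6 conditions and differ in depth, so r describes these libraries and has no p-value. The 3 genes closest to Atf3 were Cd14 (r = 0.95), a receptor for bacterial lipopolysaccharide on myeloid cells, C5ar1 (r = 0.92), the complement C5a receptor, and Ccl4 (r = 0.90), a chemokine. Cd14 was at 1.69 ± 0.303 FPKM (SD, n = 3) in sham right and at 10.6 ± 3.04, 10.25 ± 2.33, 11.2 ± 3.095 and 9.91 ± 0.630 FPKM from 4 h to 10 days, nearly flat like Atf3. C5ar1 was at 0.0870 ± 0.0843 FPKM in sham right, where 1 library was at 0, and its mean was 1.35 FPKM at 4 h and 3.099 FPKM at 10 days.

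The genes closest to Maff were the inducible heat shock genes Hspa1a (r = 0.91) and Hspa1b (r = 0.90), near-identical copies whose reads cannot be fully told apart, and Ifrd1 (r = 0.88). Hspa1a was at 3.53 ± 0.174 FPKM in sham right and at 23.6 ± 1.06, 10.7 ± 0.692, 6.22 ± 1.84 and 2.69 ± 0.945 FPKM from 4 h to 10 days, highest at 4 h and lower at each later time, as for Maff. Closest to Fosb were Apold1 (r = 0.92), an endothelial immediate early gene, Bcor (r = 0.90) and Efna1 (r = 0.88). Apold1 was at 1.06 ± 0.151 FPKM in sham right and 7.57 ± 3.485 FPKM at 4 h. Closest to Fosl1 were Mettl13 (r = 0.92), Tmem252 (r = 0.91) and Acer2 (r = 0.91).

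The genes closest to Fos were the activity genes Nr4a1 (r = 0.90) and Npas4 (r = 0.89) and the bZIP repressor Nfil3 (r = 0.88). Nr4a1 was at 31.8 ± 3.01 FPKM in sham right, 32.9 ± 8.95 FPKM at 3 days and 9.86 ± 1.35 FPKM at 10 days. Closest to Junb were Egr4 (r = 0.95), H2afx (r = 0.91) and Pomgnt2 (r = 0.91), and closest to Jun were Mmp15 (r = 0.90), Nhlrc2 (r = 0.90) and Recql (r = 0.89). Closest to Fosl2 were Elfn1 (r = 0.91), Midn (r = 0.90) and Ppp1r12b (r = 0.90), and closest to Jund were Pdxp (r = 0.95), Gna11 (r = 0.95) and Vstm2l (r = 0.94). Egr4, like Junb, had its lowest mean at 10 days, 4.19 ± 2.62 FPKM.

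**Figure D4:**
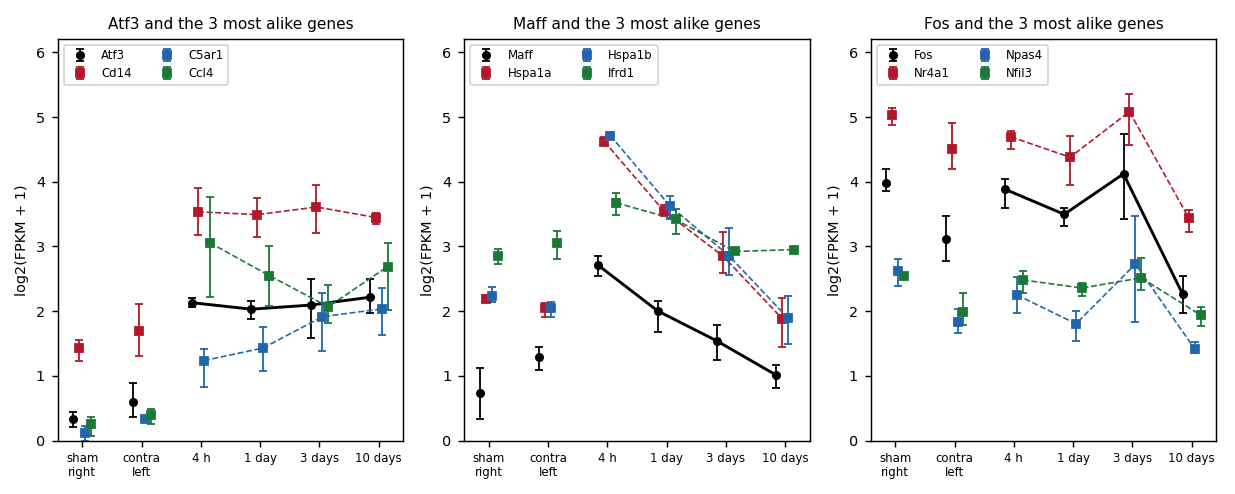
Mean level in log2(FPKM + 1) of Atf3, Maff and Fos (black) and the 3 genes closest to each by r (coloured) in the 2 control groups and at the 4 times after stroke; bars run from the lowest to the highest of 3 libraries, and lines join the 4 stroke times. Atf3 and Cd14 stay nearly level from 4 h to 10 days, Maff and Hspa1a have their highest mean at 4 h and a lower one at each later time, and Fos and Nr4a1 are lowest at 10 days.

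Among the members themselves the closest pairs were Fosl1 and Maff (r = 0.85), Fos and Junb (r = 0.78), Fosl2 and Junb (r = 0.77) and Fosl2 and Jun (r = 0.76). Atf3 had its highest r with Maff (0.55) and its lowest with Jund (-0.38), with -0.15 for Fos and -0.24 for Junb.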

How the data were processed

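Total RNA from brain punches was sequenced in 18 libraries. Per the submitters' processing notes the authors used Trimmomatic 0.36, HISAT2 2.1.0 and StringTie 1.3.4d with GRCm38; strand handling is not given in the sources used here. The authors deposited 1 table of FPKM per gene and library, with p-values and q-values of a test that is not described and that were not used. The copy used ends in an incomplete line after 34921 complete entries; its largest q-value is 0.908. The depth of each library is not given.

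The 14016 genes that reached 1 FPKM in at least 3 libraries were analysed as log2(FPKM + 1) with limma 3.58.1 in R 4.3.3 (trend and robust variance, 1 mean per group over all 18 libraries), Benjamini-Hochberg adjustment over all genes and a threshold of 0.05, for 8 comparisons. The fit was tried on simulated data with normal noise of the same SD in all groups. That simulation did not test unequal spread between groups. An exact permutation test of 3 against 3 cannot go below 0.1. No 2 libraries were identical. The labels name no batch. Coordinates and overlaps came from GENCODE M21, promoter windows from RefSeq. Alternatives covered pseudocount, filter, scaling, controls, replicate block and libraries left out.

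The genes named were all 9 members; from each pathway list the 2 largest called changes in each direction at each time against sham right; for each member the 3 genes with highest r; and marker lists by summed level. The values of 1 gene picked by this rule are not reported here. Members and lists were chosen with earlier results of these data known. List genes Mapk7, Hbb-bs and Hbb-bt had no entry; of 2 Map2k7 entries the higher was counted.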

Additional observations from a re-analysis of the deposited data

Results flagged for a closer look

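For 4 results the effect of stroke differed between neighbouring times by a test of the difference itself, the step between the times in the same limma fit. Fosb was lower at 1 day than at 4 h, a difference of -1.0896 on the log2 scale (limma adjusted p = 0.00897), and all 3 libraries at 1 day were under the 3 at 4 h. Fos was lower at 10 days than at 3 days, a difference of -1.7804 (limma adjusted p = 0.0016), again without overlap. Junb differed between the same times by -1.7915 (limma adjusted p = 0.00434), with 10 day library 5 the lowest of all. Fosl1 differed between them by -0.6158 (limma adjusted p = 0.0183), with all 3 libraries at 10 days under the 3 at 3 days. Of 14 alternatives, 13 kept the Fos call, 12 the Junb call, 10 the Fosb call and 6 the Fosl1 call. None of these steps was called when only the groups compared were fitted.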

How the results depend on the processing

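Atf3 at all 4 times and Maff at 4 h were called in each of 16 alternatives, and none of the 27 member differences with unadjusted p under 0.05 changed direction in any; the other 45 are given as levels, since 25 change sign under at least 1 alternative. With 1 library left out in turn the number of members called was 4 to 4 at 4 h, 2 to 3 at 1 day, 1 to 2 at 3 days, 3 to 3 at 10 days, 0 to 1 for contralateral left, 0 to 1 from 4 h to 1 day, 0 to 0 from 1 to 3 days and 2 to 3 from 3 to 10 days. Whether shared replicate numbers pair libraries is not stated and could not be settled with 3 libraries per group. The r of deviations from the group means ran from -0.227 to 0.409 over 23 pairs, 9 of them over 0.1. A replicate block gave 2 calls at 4 h, 1 at 1 day, 1 at 3 days, 0 from 4 h to 1 day and 1 from 3 to 10 days, while the calls over all genes were 106, 62, 709, 13 and 142 in place of 306, 165, 1032, 172 and 283. Fitting only the groups compared gave 0 calls from 4 h to 1 day, 1 from 1 to 3 days (Junb) and 0 from 3 to 10 days, where the calls over all genes went from 172 to 65, 732 to 645 and 283 to 3. Quantile normalization gave 1 call at 3 days, with 885 over all genes in place of 1032. Without contralateral left library 5 and 10 day library 5 together, 2 members were called lower on the contralateral side (Fos and Jun) and 1 from 1 to 3 days (Junb). The cause of these differences was not tested. Without those libraries the calls over all genes went from 4 to 2760 for contralateral left, 732 to 1290 from 1 to 3 days and 306 to 1806 at 4 h. Scaling moved the median of all genes by over 0.1: without mitochondrial genes by 0.11 at 4 h and -0.10 from 3 to 10 days, and under quantile normalization by -0.12 at 3 days and 0.13 from 3 to 10 days. Of all calls, the share that was higher went from 93.8% to 76.6% at 3 days, 87.1% to 74.2% at 10 days, 69.2% to 47.6% from 4 h to 1 day and 40.99% to 57.5% from 3 to 10 days under quantile normalization, the last to 30.6% without mitochondrial genes. Of 33 changes in the pathway lists picked by the naming rule, 19 were called in all alternatives, 14 lost the call with some library left out and 1, Ier2 at 4 h, changed sign with contralateral left as the control (0.0059). Atf3 in the controls and Maff in sham right lie near or under 1 FPKM, where the log2 difference depends most on the pseudocount.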

Other observations

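The neuronal injury programme, a list of 12 genes known from axotomized neurons and their surroundings, had 9 tested members. Against sham right 1 was called higher at 4 h, 1 at 1 day and 3 at 3 days, and 1 higher and 1 lower at 10 days, where 1.32%, 0.899%, 6.91% and 6.21% of all tested genes were called higher and 0.92% lower at 10 days. Hspb1, a small heat shock protein also made by reactive astrocytes, was at 4.44 ± 0.251 FPKM (SD, n = 3) in sham right and rose by 0.84 at 4 h, 1.84 at 1 day and 0.87 at 3 days. Arg1, arginase 1, rose by 3.32 at 3 days, to 11.1 ± 6.00 FPKM, when macrophage markers were also high. At 10 days, when those markers were highest, Arg1 was not called against sham right, and from 3 to 10 days it fell by 3.15 (log2 fold change -3.15, limma adjusted p = 3.036e-05). Csf1 rose by 0.67 at 10 days, and Gap43, a growth cone protein, differed by -0.50, from 122.7 ± 4.32 FPKM to 87.2 ± 12.8 FPKM. The Hspb1 call at 4 h ended without any 1 sham right library or 4 h library 3 (limma adjusted p up to 0.0827), the Csf1 call without sham right library 1 (0.0756) and the Gap43 call without any 1 sham right library or 10 day library 5 (up to 0.129).

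Of 15 upstream kinases and serum response factors, 13 were tested and none was called by limma against sham right at any time or on the contralateral side. Their median difference was 0.04 at 4 h, 0.09 at 1 day, 0.03 at 3 days and -0.10 at 10 days.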
